A study of Mus musculus with 2 samples.

Results

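The cytosolic ribosomal protein genes were examined in a list of genomic regions enriched with an anti-E2F1 antibody in primary mouse hepatocytes. Rows were taken by gene symbol alone: Rpl or Rps followed by a digit, or Rplp, leaving out the S6 kinase genes whose symbols start with Rps6k. The rule found 43 of the 6887 pairs of a peak and a gene in the list. They cover 37 of 5594 genes and 43 of 5667 peaks. Of these genes, 31 are cytosolic ribosomal protein genes, 19 of the large (60S) and 12 of the small (40S) subunit. The other 6 are the paralogs Rpl3l and Rps4y2 and 4 symbols of pseudogenes (Rpl30-ps6, Rpl26-ps2, Rps12-ps3 and Rpl21-ps14). This split is by symbol, and RefSeq lists Rps4y2 too as a transcribed pseudogene.

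The hepatocytes came from C57Bl6J mice, received an adenovirus carrying E2F1 and were fixed 36 h later. Both records, 1 of E2F1 chromatin immunoprecipitation followed by sequencing (ChIP-seq) and 1 of input chromatin, come from such cells, so E2F1 was overexpressed in all material and no cells without the vector were analysed here. The series text speaks of 2 replicates, each combined from 2 ChIPs, but the peak list holds 1 value per peak. No value below carries a replicate error, and read totals of the libraries are unknown. A peak list holds no expression, so the cell type of the labels could not be checked against its markers.

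Ribosomal proteins are the structural proteins of the large and the small subunit, which join on a messenger RNA to translate it. Growing cells need them in balanced amounts, and the liver makes large amounts of protein for export. Many transcripts of these genes begin in a run of pyrimidines, the TOP element through which growth signals set their translation. E2F1 is best known for binding genes of DNA replication and the cell cycle.

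The promoters of 4 genes are shown as examples with and without an E2F motif. Rps19 had the highest fold of the genes with a sequence, Rps3a1 was chosen for its motif, and Rpl26 and Rps7 were among the lowest folds. Rpl24 and Rps4x had higher folds than Rps3a1 and hold no E2F motif in their windows, so the 4 are no comparison of strong with weak peaks. The sequences are from RefSeq (GRCm38.p6), run 5′ to 3′ on the strand of the gene, and go from 250 bases before the start to 10 after it. Capitals mark letters of an E2F motif, searched on both strands in windows that end 50 bases after the start. The 8-letter motif was TTTCCCGC, TTTCGCGC, TTTGCCGC or TTTGGCGC, and the 7-letter core is the same without its first T, so each 8-letter match also holds a core. The 4 windows lie at chr7:24884663-24884922 (plus strand), chr3:86142659-86142918 (minus), chr11:68901316-68901575 (plus) and chr12:28635944-28636203 (minus).
Rps19: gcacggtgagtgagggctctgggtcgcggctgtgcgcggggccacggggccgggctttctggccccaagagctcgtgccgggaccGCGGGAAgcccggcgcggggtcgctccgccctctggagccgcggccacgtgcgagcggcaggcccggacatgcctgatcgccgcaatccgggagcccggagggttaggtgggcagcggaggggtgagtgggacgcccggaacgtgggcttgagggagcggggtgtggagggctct
Rps3a1: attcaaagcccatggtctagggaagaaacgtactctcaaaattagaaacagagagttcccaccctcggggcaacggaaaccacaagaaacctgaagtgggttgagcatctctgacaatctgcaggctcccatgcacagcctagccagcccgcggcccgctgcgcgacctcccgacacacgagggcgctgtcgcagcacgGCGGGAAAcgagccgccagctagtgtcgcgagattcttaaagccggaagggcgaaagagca
Rpl26: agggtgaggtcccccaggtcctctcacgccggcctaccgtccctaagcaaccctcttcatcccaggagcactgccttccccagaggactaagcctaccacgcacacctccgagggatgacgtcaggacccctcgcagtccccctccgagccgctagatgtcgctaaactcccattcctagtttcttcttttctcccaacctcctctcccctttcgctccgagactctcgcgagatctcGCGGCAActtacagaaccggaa
Rps7: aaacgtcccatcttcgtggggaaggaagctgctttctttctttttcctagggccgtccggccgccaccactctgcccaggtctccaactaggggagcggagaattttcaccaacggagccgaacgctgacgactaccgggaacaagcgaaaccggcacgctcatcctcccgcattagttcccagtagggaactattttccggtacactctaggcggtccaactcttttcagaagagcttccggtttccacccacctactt

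Rps3a1 holds an 8-letter match that begins 51 bases before the start, on the other strand. Rps19 holds a core 165 bases before this start and Rpl26 one 12 bases before it, both on the other strand. Rps7 holds neither. Of the 3 starts RefSeq gives for Rps19, the one with the longest pyrimidine run is shown, and 2 of the 3 windows hold a core. The 8-letter motif occurs in 2.26% of all 32851 promoter windows of the RefSeq table and the core in 9.57%. Among windows of protein-coding genes the shares are 2.85% and 12.1%. A match says only that these letters are present in the promoter window. Sequence under the peaks was not read, and at Rpl26 the summit window lay 410 bp inside the gene, away from the core.

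A further 6 promoters are shown for the pyrimidine run near the start. Of 18 genes with a promoter peak and a sequence, they are those whose run reached 8 bases. They were chosen after the runs had been counted. Each line gives 20 bases before and 20 after the RefSeq start, with the longest run of C and T that overlaps the 10 bases on either side of the start in capitals. The windows are chr3:130730318-130730357 (minus), chr7:109519175-109519214 (plus), chr7:4792945-4792984 (plus), chr7:45718051-45718090 (plus), chr8:123102330-123102369 (plus) and chrX:37085203-37085242 (minus), in the order of the lines.
Rpl34: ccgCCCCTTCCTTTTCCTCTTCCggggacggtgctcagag
Rpl27a: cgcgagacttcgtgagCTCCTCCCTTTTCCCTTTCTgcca
Rpl28: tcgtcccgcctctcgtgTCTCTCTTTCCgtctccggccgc
Rpl18: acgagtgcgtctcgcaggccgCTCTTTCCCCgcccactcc
Rpl13: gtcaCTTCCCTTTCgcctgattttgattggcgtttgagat
Rpl39: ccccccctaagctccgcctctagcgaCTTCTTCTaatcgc

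The runs are 20 bases long at Rpl34 and Rpl27a, 11 at Rpl28, 10 at Rpl18 and Rpl13 and 8 at Rpl39. Not all of them hold the RefSeq start. At Rpl13 the run begins 16 bases before the start and ends ahead of it. At Rpl18 and Rpl39 it begins only at base 2 and base 7 of the gene. A run of at least 8 occurs in 13.7% of all promoter windows. That share counts every window, whereas for a ribosomal protein gene with several starts the longest run was taken. Such runs also occurred at many genes with no listed peak, among them Rpl7a (21 bases), Rpl35 (18), Rpl15 (17) and Fau (16). Rpl4, Rpl13a, Rpl14 and Rps25, also without a listed peak, had runs of 14. Runs of at least 8 bases are therefore not particular to genes with a peak. RefSeq starts can differ from the start used in these cells by some bases, which moves the run relative to it. The peaks at these 6 genes had folds between 4.66 and 6.74.

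Sequences were found for 58 of the 79 cytosolic ribosomal protein genes (73.4%), and for 18 of the 23 with a promoter peak (78.3%). Both shares are below the 80% set for a comparison over a set of genes, so a comparison of motifs between genes with and without a peak is void. By name, the 8-letter E2F motif was found at Rps3a1 and Rpsa among these 18, and the core also at Rps19 and Rpl26. The core was likewise found at genes with no listed peak, among them Rpl7a, Rpl35a, Rps10, Rps16, Rps23 and Fau. No sequence is shown for Rpl3, Rpl7 and Rpl21.

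The first question was at how many ribosomal protein genes E2F1 was listed at the promoter. A promoter peak has its summit at most 1000 bp from the transcription start site (TSS). Of the 79 genes, 47 of the large and 32 of the small subunit, 23 had one, or 29.1% (exact 95% binomial interval 19.4% to 40.4%). The share among all 21900 protein-coding genes was 13.1%. Of the 23, 22 fit the symbol rule, and the other is Rpsa, the laminin receptor gene that codes for a protein of the small subunit. Its peak had a fold of 8.31 and 232 tags. A peak elsewhere only was listed for 9 genes and none for 47, so 40.5% had any listed peak, against 24.7% of protein-coding genes. The list is a selection by the authors, and a gene without a listed peak is not shown to be unbound. Intervals cover counting error over genes only, and no test was run on these counts.

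Both subunits were represented. In the large subunit 15 of 47 genes had a promoter peak (31.9%, interval 19.1% to 47.1%), and in the small subunit 8 of 32 (25%, interval 11.5% to 43.4%). These intervals overlap widely. Mitochondrial ribosomal protein genes, which code for the separate ribosome of that organelle, had 24 of 78 (30.8%, interval 20.8% to 42.2%), close to the cytosolic share. Their median promoter fold was 6.43, against 6.74 for the 23 cytosolic genes and 6.525 for all 2866 protein-coding genes with a promoter peak. The cytosolic share was higher than the 13.1% of all protein-coding genes, while the median fold was near theirs. That reference counts every RefSeq protein-coding gene, whether or not it is expressed in hepatocytes. No test of the difference was run, and a comparison with expressed genes only was not possible here.

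**Figure D1:**
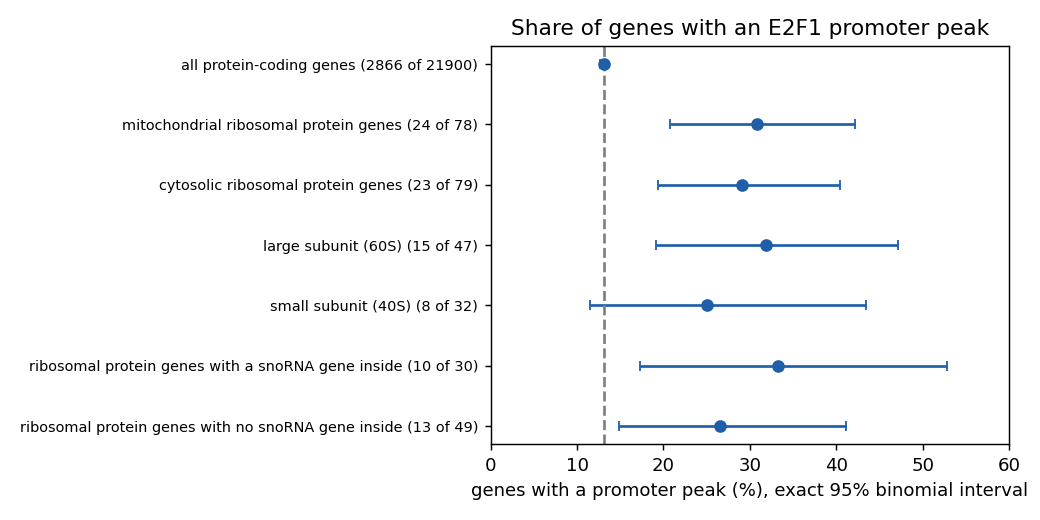
Share of genes with an E2F1 promoter peak (x axis, percent) in groups of genes (y axis, with counts); points are shares, bars exact 95% binomial intervals, and the dashed line is the share of all protein-coding genes. The cytosolic genes stand at 29.1% and the mitochondrial ones at 30.8%, against 13.1% of all protein-coding genes.

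Smaller groups were also counted by function. Of 20 genes mutated in Diamond-Blackfan anaemia, a failure of red cell production caused by faulty ribosomes, 5 had a promoter peak (25%, interval 8.66% to 49.1%): Rps19, Rpl11, Rpl18, Rpl26 and Rps7. The share of all protein-coding genes, 13.1%, lies inside that interval. Outside that list the count was 18 of 59 (30.5%). Of the 5 peaks, those of Rpl18 and Rpl26 had scores near the lowest in the peak list, and that of Rps7 was among the lowest by fold, as given below. Rpl11 and Rpl5 bind Mdm2, the ligase that degrades p53, together with the 5S RNA. Rpl11 had a promoter peak, while Rpl5 had only a peak 18017 bp past its end. Of the P stalk genes Rplp0, Rplp1 and Rplp2, which recruit the GTPases of translation, Rplp0 had a promoter peak.

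Some ribosomal protein genes carry genes of small nucleolar RNAs (snoRNAs), guides of RNA modification, in their introns. By the RefSeq table, 30 of the 79 hold a snoRNA gene, and 10 of these had a promoter peak (33.3%, interval 17.3% to 52.8%). Among the 49 others, 13 did (26.5%, interval 14.9% to 41.1%). The median folds were 6.89 and 6.74. The intervals of the shares overlap, and no test of the difference was run.

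The strength of the promoter peaks was next described gene by gene. For each peak the authors give the fold of ChIP tags over the background expected from input, the number of tags, a score (10 times the negative log10 of the p-value) and a false discovery rate. Over the 22 genes of the symbol rule the fold ran from 3.0 to 19.02 with a median of 6.71 (quartiles 5.695 and 8.5775). For all 2612 promoter peaks the median was 6.48 (quartiles 4.87 and 9.32). The fold was above that median at 13 of the 22 (59.1%), and reached 10 at 3 of the 22 (13.6%), against 21.9% of all promoter peaks. Tags had a median of 173.5 against 169, and 15 of 22 peaks (68.2%) had a false discovery rate of at most 1%, against 60.8%. Other measures went the other way. The median score was 136.885 against 148.485, and the median false discovery rate 0.725% against 0.65%. A rate of at most 5% was found at 86.4% of the 22, against 87.6%.

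**Figure D2:**
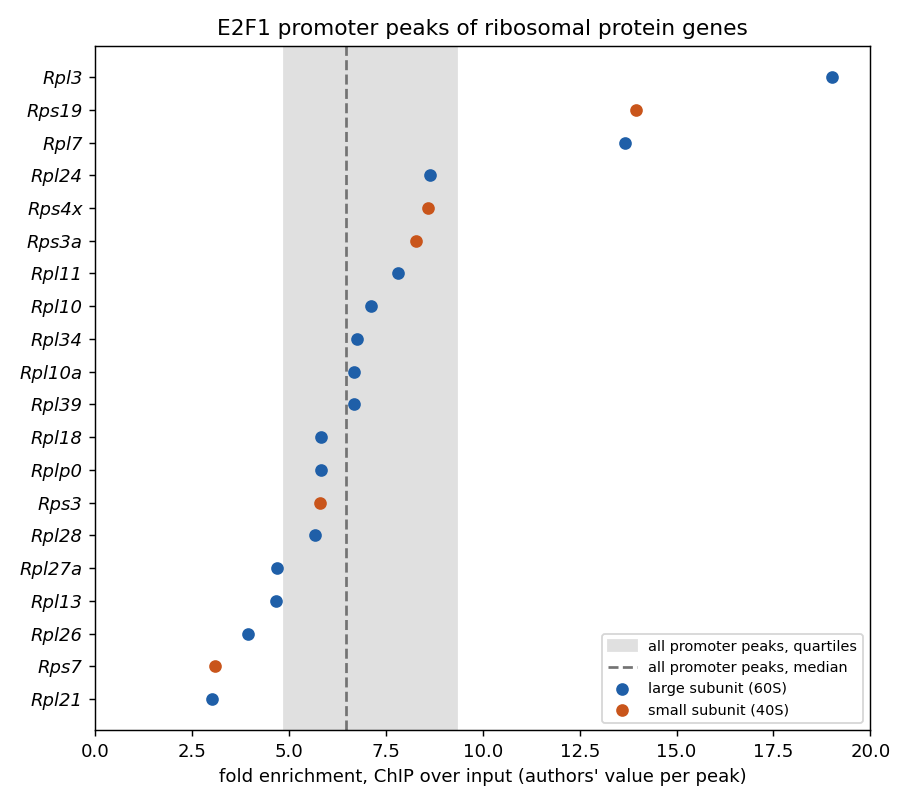
Fold enrichment over input (x axis, the authors' value per peak) of the promoter peaks of 20 of the 22 ribosomal protein genes (y axis), coloured by subunit; the dashed line and grey band are the median and quartiles of all 2612 promoter peaks. Rpl3, Rps19 and Rpl7 stand alone above a fold of 10, and the others start at 3.0 for Rpl21.

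In the large subunit, Rpl3 stood highest. It codes for a protein near the peptidyl transferase centre, where peptide bonds form. Its peak, on chromosome 15 from 79913783 to 79914083 (mm9, as are all peak positions), held the TSS and 585 tags with a fold of 19.02. The score was 891.78 and the false discovery rate 0%. It ranked 107th of all 2612 promoter peaks by fold and 23rd by tags.

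Rpl7, also a gene of the large subunit, followed with a fold of 13.66, from 274 tags, at chromosome 1 from 16094403 to 16094703. The window edge was 40 bp inside the gene, the score 477.09 and the false discovery rate 0.16%. The same peak is also named for Rdh10, a retinol dehydrogenase gene whose TSS lies 1151 bp away. After Rpl7 the folds of the large subunit fell to 8.64.

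That value belongs to Rpl24, a protein at the face between the subunits, on chromosome 16 from 55966222 to 55966522. The window held the TSS, with 339 tags, a score of 414.77 and a false discovery rate of 0.13%. Rpl11 reached a fold of 7.82 from 116 tags, at chromosome 4 from 135609161 to 135609461, also over the TSS, with a score of 143.08 and a rate of 0.65%. Rpl10, which joins the subunit last and completes it, had 7.11 and 220 tags on chromosome X from 71515560 to 71515860. Its window ended 290 bp upstream of the TSS, the single upstream one of the 22, with a score of 336.37 and a rate of 0.1%.

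The remaining large subunit genes had lower folds. Those of Rpl34 (6.74), Rpl10a (6.68) and Rpl39 (6.67), all with the TSS in the window, lay just above the median of all promoter peaks. Rplp0, the base of the P stalk, and Rpl18 both had 5.82. Rpl28 had 5.66, Rpl27a 4.7 and Rpl13 4.66. The weakest were Rpl26 with 3.94, its window 410 bp inside the gene, and Rpl21 with 3.0, its window 74 bp inside. Rpl21 held 231 tags in spite of its low fold, and by fold it ranked 2596th of 2612. The false discovery rate was highest at Rpl26 (8.47%) and Rpl18 (7.81%). Their scores, 50.25 and 52.73, were close to the lowest score in the list, 50.

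In the small subunit, Rps19 was highest, with a fold of 13.96, from 271 tags, at chromosome 7 from 25669183 to 25669483. It was the first gene linked to Diamond-Blackfan anaemia. The window held the TSS, the score was 648.92 and the false discovery rate 0.26%. Its fold was close to that of Rpl7.

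Next described are Rps4x and Rps3a, which stood close together. Rps4x, the X-linked copy of a gene that also has a Y-linked copy in humans, had 8.58 from 67 tags on chromosome X from 99384625 to 99384925 (score 130.15, rate 0.78%). Rps3a, the file's older symbol for Rps3a1, had 8.27 and 144 tags on chromosome 3 from 85946572 to 85946872 (score 250.54, rate 0.22%). Both windows held the TSS.

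Rps3, which helps to form the entry of the messenger RNA channel and also acts in DNA repair, had a fold of 5.8 with 192 tags. Rps7 was lowest of the subunit with 3.09 and 183 tags. Over the 8 genes with a promoter peak, Rpsa included, the small subunit had a median fold of 8.44, against 6.67 over the 15 of the large. The quartiles were 7.65 and 8.69 in the small subunit and 5.18 and 7.465 in the large, so the middle parts of both groups lay apart. The full ranges, 3.09 to 13.96 and 3.0 to 19.02, overlapped. No test of this difference was run.

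Fold and tags did not rank these peaks alike. Rps4x and Rps3a had nearly the same fold from 67 and 144 tags. Rpl21 and Rps7 had the lowest folds, 3.0 and 3.09, from 231 and 183 tags, more than the 67 of Rps4x. A fold depends on the local input background, and a region's tags depend on its length, which ran from 1094 to 3314 bp in the 22 peaks. How much of the spread comes from either was not tested.

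**Figure D3:**
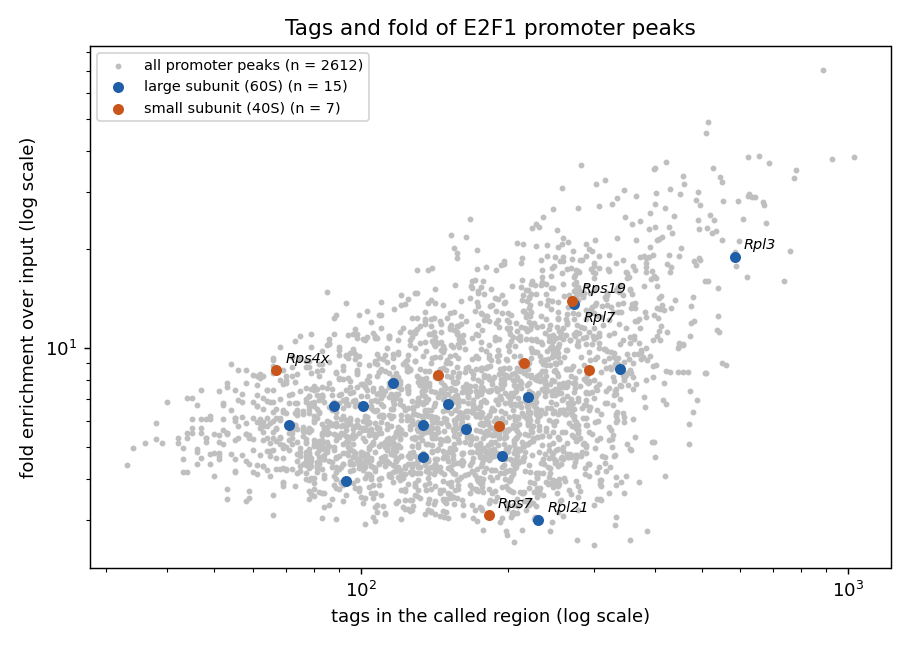
Tags in the called region (x axis, log scale) and fold enrichment over input (y axis, log scale) of all 2612 promoter peaks (grey) and of 22 ribosomal protein genes (coloured by subunit). Rpl3 lies near the top with 585 tags and a fold of 19.02, while Rpl21 and Rps7 lie at the lower edge with 231 and 183 tags.

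The next question was where these peaks lay relative to the start of the gene. The 301 bp window around the summit held the TSS in 18 of 22 genes (81.8%, interval 59.7% to 94.8%). Over all promoter peaks it did so in 53.6%. Windows off the TSS lay inside the gene at Rpl7, Rpl21 and Rpl26 and upstream at Rpl10. Windows upstream of the TSS made up 4.55% of the 22, with an interval of 0.115% to 22.8%, against 30.6% of all promoter peaks. These intervals cover counting error over genes only, genes are not replicates, and no test of either difference was run. How exactly the TSS is annotated in either set was not tested.

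**Figure D4:**
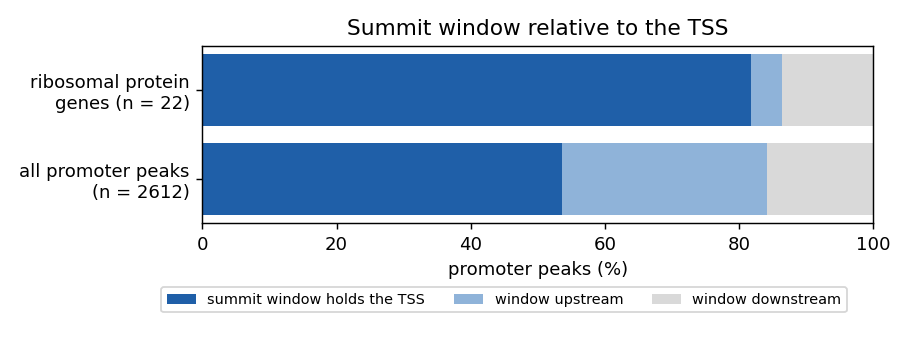
Promoter peaks (x axis, percent) split by the place of the 301 bp summit window relative to the TSS, for 22 ribosomal protein genes and all 2612 promoter peaks. The window held the TSS in 81.8% of the former and 53.6% of the latter.

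By the promoter definition used here, none of the 22 peaks lay at the promoter of a second gene. Of all 2612 promoter peaks, 330 did (12.6%). A second gene was named at 5 of the 22 (22.7%, all promoter peaks 24.6%), each with its own TSS farther off. They were Rdh10 at Rpl7, Sphk2 at Rpl18, AC114005.5 at Rpl13, Rnf222 at Rpl26 and Rasl11a at Rpl21. The authors' class, however, places the Rpl7 peak at the promoter of Rdh10 too, whose TSS lies 1151 bp away.

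By chromosome, 7 of the 14 ribosomal protein genes on chromosome 7 had a promoter peak (among them Rpl18, Rpl27a, Rpl28, Rps3 and Rps19), against 12.1% of all protein-coding genes there. On chromosome X it was 3 of 4 (Rpl10, Rpl39 and Rps4x), against 8.49%. Chromosome 2 had 0 of 4, although Rpl12 there had peaks elsewhere. Chromosome 10 also had 0 of 4, although Rps15 there had a peak elsewhere. Counts per chromosome are small, and these were singled out after they had been seen.

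A further 20 peaks were named for genes of the rule but lay outside promoters. Their median fold was 4.52 (range 2.68 to 17.28), against 4.07 for all 3055 peaks outside promoters. At 6 genes there were 2 peaks, and at 5 of them 1 of the pair was the promoter peak. At Rplp0 the second peak was the stronger, with a fold of 9.52 against 5.82 and nearly equal tags (136 and 134). It lies on chromosome 5 from 116018708 to 116019008, 9484 bp from the first and 4971 bp past the gene (score 280.39, false discovery rate 0.08%), and is also named for Gcn1l1. Gcn1l1 is the closer gene by the authors' assignment.

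At Rpl24, Rpl10a, Rpl10 and Rpl13 the promoter peak was the stronger. The second peak of Rpl24 lay 6584 bp inside from the TSS on chromosome 16 from 55972972 to 55973272, with a fold of 4.65 and 267 tags (score 163.07, rate 0.65%). That of Rpl10a lay 1352 bp inside on chromosome 17 from 28466768 to 28467068, with 2.91 and 219 tags (score 73.86, rate 3.81%). At Rpl10a the weaker peak by fold held more tags than the promoter peak, which had 88.

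Both Rpl10 and Rpl13 had their second peak just past the gene. At Rpl10 it lay 110 bp past the end on chromosome X from 71518585 to 71518885, with a fold of 5.26 and 66 tags (score 96.64, rate 1.69%). At Rpl13 it lay 625 bp past the end on chromosome 8 from 125629770 to 125630070, with 3.29 and 127 tags (score 73.96, rate 3.79%). Rpl12, a protein of the stalk base, had a peak in its 3' untranslated region, on chromosome 2 from 32819813 to 32820113, and another 1223 bp past the end, from 32821240 to 32821540. Their folds were 3.12 and 4.44, with 236 and 199 tags, scores of 116.14 and 132.71 and rates of 1.03% and 0.77%.

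For 8 other ribosomal protein genes the listed peak lay away from the promoter. The strongest was at Rps2, a protein of the small subunit, with a fold of 11.15, from 195 tags, at chromosome 17 from 24856732 to 24857032 (score 284.49, false discovery rate 0.08%). It lay 1671 bp inside from the TSS and 1729 bp from that of the neighbour Rnf151. The authors' class places this peak at the promoter of Rnf151. With promoters of 5000 bp the Rps2 peak would count as a promoter peak, as would that of Rpl23 at 3123 bp. For the latter peak 1700001P01Rik, at 3095 bp, is the closer gene by the authors' assignment. Rpl23 reached a fold of 3.1 from 255 tags, at chromosome 11 from 97640328 to 97640628 (score 69.43, rate 4.44%).

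Past the 3' end lay the peaks of Rps28, Rpl36, Rps9 and Rpl5. Rps28 had a fold of 5.65 and 89 tags, 1051 bp past the end on chromosome 17 from 33954620 to 33954920 (score 141.91, rate 0.64%), inside Kank3. Rpl36 had 5.19 and 56 tags, 109 bp past the end on chromosome 17 from 56753776 to 56754076 (score 71.24, rate 4.1%), inside Lonp1. Rps9 had 4.18 and 229 tags, 942 bp past the end on chromosome 7 from 3659446 to 3659746 (score 84.29, rate 2.69%).

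Rpl5 had 4.62 and 53 tags on chromosome 5 from 108356042 to 108356342 (score 62.79, rate 5.51%), far from the gene as given above and inside Fam69a. Upstream lay the peaks of Rps15, 11923 bp away on chromosome 10 from 79742952 to 79743252, and Rps27, 6716 bp away on chromosome 3 from 90024290 to 90024590. The first had a fold of 5.87 and 48 tags (score 54.22, rate 7.43%) and lay inside Dazap1. The second had 4.2 and 142 tags (score 69.69, rate 4.42%) and lay inside Rab13, the closer gene. Distances of this size link a peak to a ribosomal protein gene by position only.

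The paralogs and pseudogene symbols add 6 peaks. Rps4y2, listed as Rps4l in RefSeq and there a transcribed pseudogene, had a peak over its TSS with a fold of 4.39, from 61 tags, at chromosome 6 from 148303043 to 148303343 (score 57.22, rate 6.76%). Rpl3l, the muscle form of Rpl3, had a peak 4634 bp upstream with 3.27 and 161 tags on chromosome 17 from 24859839 to 24860139 (score 139.44, rate 0.73%). That peak lies inside Ndufb10, the closer gene.

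The strongest of these 20 peaks outside promoters carried the symbol Rpl30-ps6, with a fold of 17.28, from 366 tags, at chromosome 1 from 88384048 to 88384348 (score 744.43, rate 0%). It lies 13466 bp past that pseudogene, and no other gene is named for it. The other pseudogene symbols had weak and distant peaks. Rpl21-ps14 had a fold of 4.6 and 57 tags 6175 bp past its end on chromosome 8 from 4867827 to 4868127 (score 60.82, rate 5.91%).

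Rpl26-ps2 had 3.5 and 114 tags 19186 bp upstream on chromosome 12 from 58753189 to 58753489 (score 70.2, rate 4.3%). Rps12-ps3 had 2.68 and 296 tags 13260 bp upstream on chromosome 19 from 59383245 to 59383545 (score 56.1, rate 6.98%). None of these 3 pseudogenes is itself under the summit window. RefSeq lists 321 pseudogene symbols of this family, and reads from near-identical copies cannot always be assigned, so values at these genes are uncertain to that extent.

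No listed peak was named for 28 genes of the large and 19 of the small subunit. In the large subunit they include Rpl4, Rpl6, Rpl7a, Rpl8, Rpl9, Rpl13a, Rpl14, Rpl15, Rpl17, Rpl19, Rpl22, Rpl23a, Rpl27, Rpl29, Rpl30, Rpl31, Rpl32, Rpl35, Rpl35a, Rpl36a, Rpl37, Rpl37a, Rpl38, Rpl41, Rplp1 and Rplp2. In the small subunit they include Rps6, Rps10, Rps12, Rps13, Rps14, Rps15a, Rps16, Rps18, Rps20, Rps21, Rps23, Rps24, Rps25, Rps26, Rps27a, Rps29 and Fau. Among them is Rps6, the substrate of the S6 kinases.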

How the data were processed

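Reads were aligned to mm9 (NCBIM37) with Bowtie2 2.1.0, per the submitters' processing notes, and MACS was the peak caller, per the file headers. The version and settings of MACS, and any pooling of replicates, were not given in the sources used here. For each peak, the deposited list holds the tag count of the called region, the pileup height (signal), the fold (ratio of ChIP tags to expected background), the score and the false discovery rate in percent. The list has scores from 50 and rates up to 8.57%.

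From these, computed here in Python 3.11.15 with pandas 2.3.3 and SciPy 1.17.1, a promoter peak has its 301 bp summit window within 850 bp of a TSS. For peaks downstream or in 3' untranslated regions the listed distance is to the gene end. Symbols were matched to RefSeq GRCm38.p6 by symbol or unique synonym (5493 of 5587). Genes of each list are counted with exact (Clopper-Pearson) 95% intervals. Motif search and promoter classes were tested on simulated data. No test between groups was run, since there is 1 peak list and genes are not replicates. Members and lists were chosen with earlier results of these data known. Rows of the symbol rule are described with full values for the 10 genes of highest promoter fold and all peaks outside promoters, except that some genes are not reported here and enter only counts and medians. Promoter sequences follow the fold and the E2F motif where RefSeq has one, and Rpl26 and Rps7 were added after their values were seen. Promoter width, thresholds and gene assignment were varied.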

Additional observations from a re-analysis of the deposited data

How the results depend on the processing

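The count of 23 genes, the median fold of 6.74 and the shares of both subunits were recomputed under 20 alternatives. Of these, 19 stayed within 1.5 times the count, within the quartiles of the fold or within the binomial interval of the share. The exception was to keep only the 1416 peaks of highest fold among the 5667, which left 10 of the 79 genes (12.7%) and 5.48% of protein-coding genes. Among the other settings the count ran from 16, with a false discovery rate of at most 1% (20.3% against 8.01%), to 32, with any listed peak. Median folds ran from 6.27 to 7.465. The alternatives for E2F motifs were not run, since that comparison was void. Replicates could not be left out, because the list is not split by replicate. Depth of the libraries is unknown, so a missing peak has no limit attached.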
